A study of Homo sapiens with 41 samples.

Results

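Cohesin peaks were examined that appeared in T47D cells given triptolide without osmotic stress and that had no counterpart in cells without the drug. A peak counted as new when it stood in the RAD21 peak list of unstressed cells with triptolide and overlapped, by as little as 1 bp, no peak in any of the 3 RAD21 lists of unstressed cells without triptolide. On chromosomes 1 to 22 and X this left 14068 of the 40969 peaks of the triptolide list (34.3%), and the other 26901 peaks of the same list serve as the comparison throughout. The peaks were chosen by measured values, their presence in called lists, so the absence of these peaks from the untreated lists is how they were picked and not a result.

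T47D is an established line of luminal breast carcinoma. All cells were first kept for 48 h in phenol red-free medium with charcoal-treated serum, which removes steroid hormones, and then overnight without serum. The untreated group received nothing further and has 3 RAD21, 3 CTCF and 2 RNA polymerase II (Pol II) libraries. Stressed groups received 110 mM NaCl for 1 h (3 RAD21, 3 CTCF and 2 Pol II libraries), or for 7.5 or 30 min (CTCF only), and recovery groups were returned to isotonic medium for 60 min after 1 h of NaCl (3 RAD21 libraries and 1 CTCF library). Triptolide, at 500 nM from 2 h before, was combined with no stress, 1 h of NaCl and recovery, in 1 RAD21 and 1 CTCF library each and in no Pol II library. Each list comes from 1 library of a single cell line, and nothing in the labels says whether replicates were separate cultures. The p-values therefore measure the spread between libraries, which may be technical.

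Titles and tags disagree for the libraries that matter most here. The title of the unstressed RAD21 library gives triptolide, while its pre-treatment tag says untreated. By that tag it would be a further untreated library. The RAD21 recovery library of the second submission (replicate 3, here set 2) is titled without triptolide but tagged with it. The titles were followed, so "with triptolide" means the library titled so. With 1 RAD21 library per triptolide state, no difference due to the drug was tested.

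RAD21 is the kleisin subunit that closes the cohesin ring. Cohesin is loaded on chromatin, extrudes DNA into loops and is held where it meets CTCF, a zinc finger protein bound to a directional motif, so most cohesin peaks of a cell lie on CTCF sites. Cohesin also gathers at promoters and other places of active transcription. Triptolide binds XPB, the helicase subunit of the general factor TFIIH, blocks promoter opening and leads to loss of Pol II from genes.

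The sequences printed here come from promoters with new peaks. At 1 the new peak lay over a CTCF peak, and at the others over Pol II without an untreated CTCF peak. Each is the 250 bases before an annotated start, from RefSeq (GRCh38.p14), read 5′ to 3′ on the strand of the gene and free of any annotated gene. The first 3 were the strongest of their kind with such a sequence. The last 4 are the strongest that hold the word CCGGAAG, the core of many ETS factor sites, and were chosen after the word shares were seen; capitals mark that word, or its complement read on the other strand.
MAT2B: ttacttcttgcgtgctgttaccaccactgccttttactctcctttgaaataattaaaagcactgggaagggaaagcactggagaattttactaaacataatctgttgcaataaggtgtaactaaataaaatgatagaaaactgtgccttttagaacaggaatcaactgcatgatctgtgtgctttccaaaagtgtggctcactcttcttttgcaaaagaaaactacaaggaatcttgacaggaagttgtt
NFIA: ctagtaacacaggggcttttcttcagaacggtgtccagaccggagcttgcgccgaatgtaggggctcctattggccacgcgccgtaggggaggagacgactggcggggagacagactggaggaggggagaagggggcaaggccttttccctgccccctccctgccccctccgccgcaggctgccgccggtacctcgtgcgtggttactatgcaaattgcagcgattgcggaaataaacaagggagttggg
ZNF613: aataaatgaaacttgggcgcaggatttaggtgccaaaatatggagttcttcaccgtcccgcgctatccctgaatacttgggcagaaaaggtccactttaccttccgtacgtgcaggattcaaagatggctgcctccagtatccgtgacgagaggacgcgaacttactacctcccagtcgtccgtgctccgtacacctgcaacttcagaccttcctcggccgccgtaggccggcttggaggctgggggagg
RIOK3: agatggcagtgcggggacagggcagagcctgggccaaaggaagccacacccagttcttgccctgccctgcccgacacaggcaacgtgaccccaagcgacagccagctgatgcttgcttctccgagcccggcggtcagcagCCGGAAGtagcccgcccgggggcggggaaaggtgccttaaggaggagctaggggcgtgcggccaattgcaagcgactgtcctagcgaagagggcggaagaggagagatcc
ZNF432: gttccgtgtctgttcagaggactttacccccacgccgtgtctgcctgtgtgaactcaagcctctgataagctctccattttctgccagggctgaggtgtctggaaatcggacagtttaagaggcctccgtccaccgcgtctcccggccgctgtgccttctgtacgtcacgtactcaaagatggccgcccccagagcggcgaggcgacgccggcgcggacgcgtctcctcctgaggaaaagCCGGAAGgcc
RPS10: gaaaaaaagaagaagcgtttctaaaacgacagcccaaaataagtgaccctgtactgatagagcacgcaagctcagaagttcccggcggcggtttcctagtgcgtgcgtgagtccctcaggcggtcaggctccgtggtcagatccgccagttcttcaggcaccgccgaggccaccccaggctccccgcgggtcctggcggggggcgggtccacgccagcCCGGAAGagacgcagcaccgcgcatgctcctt
VIPR1: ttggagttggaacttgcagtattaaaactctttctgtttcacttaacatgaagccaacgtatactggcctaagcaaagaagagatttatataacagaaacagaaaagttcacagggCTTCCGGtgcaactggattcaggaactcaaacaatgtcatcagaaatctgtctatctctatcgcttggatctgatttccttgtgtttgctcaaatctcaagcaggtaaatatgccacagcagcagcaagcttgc
MAT2B encodes the regulatory subunit of methionine adenosyltransferase, and its sequence lies at chr5:163502814-163503063 on the plus strand. Its peak had a fold enrichment of 11.5, with the summit 205 bp downstream of the start, and lay over CTCF in all 3 untreated libraries. That peak begins past the start, at position 163503088, so none of the printed bases lie under it. NFIA (chr1:61076977-61077226, plus strand), a transcription factor of the nuclear factor I family, had its summit 237 bp upstream at a fold enrichment of 8.93. The peak at ZNF613 (chr19:51927222-51927471, plus strand), a zinc finger gene, reached 8.65 with the summit 15 bp past the start. RIOK3 (chr18:23453037-23453286, plus strand), an atypical kinase, had 5.98, and ZNF432 (chr19:52048839-52049088, minus strand) had 5.63 with the summit 21 bp upstream. RPS10 (chr6:34426070-34426319, minus strand), a protein of the small ribosomal subunit, had 5.58 with the summit 26 bp upstream. VIPR1 (chr3:42489049-42489298, plus strand), the receptor for vasoactive intestinal peptide, had 5.52 with the summit 312 bp downstream.

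The untreated lists were shorter than the triptolide list, with 18297, 13762 and 24931 peaks against 40969. Nearly all of their peaks were also in the triptolide list, 98.9, 95.0 and 95.2% respectively. The 3 untreated lists differed among themselves as well. Of the peaks of untreated replicate 1, 6.59% were absent from the other two lists, of replicate 2, 14.4%, and of replicate 3, 34.4%. These shares use the rule that chose the new peaks but against 2 lists rather than 3. Set against a single untreated library, 56.4, 68.7 and 42.4% of the triptolide peaks had no counterpart in replicates 1, 2 and 3. The background of the peak caller, which grows with sequencing depth, was estimated from the deposited values at 0.534, 0.751 and 1.51 pileup units in the untreated libraries and at 1.95 in the triptolide library, the highest of these 4. The part of depth in the number of new peaks was not tested. Leaving out untreated replicate 3, the only one from the same submission, would give 21413 new peaks, while leaving out replicate 1 or 2 gives 15097 or 15292. Cutting the triptolide list to its 24931 strongest peaks, the length of the list of untreated replicate 3, would leave 2717.

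New peaks were weak peaks of their list. Fold enrichment is the authors' ratio of signal to local background for each peak, and its median was 4.68 (quartiles 3.52 and 5.86, highest 24.8) for new peaks and 11.4 for the others. The median −log10 p was 10.8 against 45.4, and the median width was 343 against 489 bp. When the list was ranked by fold enrichment and split into deciles, new peaks made up 69.1, 73.2 and 69.4% of the 3 lowest deciles, 22.6% of the sixth and 0.0244% of the top decile, which held 1. Ranked by −log10 p, none of the 5000 strongest peaks and 17 of the 10000 strongest were new. At the edge of the rule, the 5 new peaks closest to an untreated peak were 6 to 14 bp away, with fold enrichments of 1.70 to 4.74. The 5 other peaks with the least overlap shared 3 to 9 bp, with fold enrichments of 2.68 to 3.73. By distance, few new peaks lay close to a called untreated peak. Whether untreated signal at their sites fell just short of being called was not tested. The median distance to the nearest untreated peak was 19587 bp, 708 new peaks (5.03%) lay within 500 bp of one and 1432 (10.2%) over 100 kb away.

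**Figure D1:**
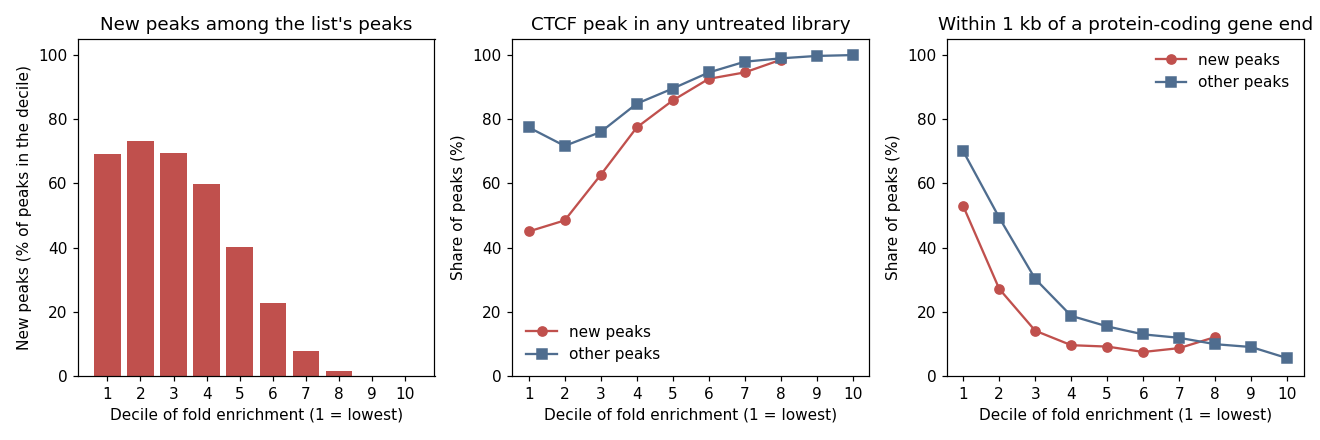
Peaks of the triptolide list in deciles of fold enrichment, with the lowest decile on the left. Bars give the share of new peaks, and points give the share of new and of other peaks over an untreated CTCF peak and within 1 kb of a gene end (deciles with under 20 new peaks carry no point for them). New peaks are most of the 4 lowest deciles, and within a decile they lie less often on CTCF than the other peaks.

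By gene position, new peaks were spread over all 3 classes. Of the new peaks, 22.7% (3199) lay within 1 kb of an end of a protein-coding gene, 41.0% inside a gene farther from its ends and 36.3% between genes. For the other peaks these shares were 16.2, 37.7 and 46.1%. The exact 95% interval for the gene end share of new peaks was 22.05 to 23.4%, which covers counting error only, and the share over the whole list was 18.4%. The higher share went with their low enrichment. In the lowest decile of fold enrichment 52.9% of new and 70.0% of other peaks were at gene ends, and weighting the other peaks to the new peaks' deciles gave 36.9%, above the 22.7% of new peaks. New peaks had the higher share in 1 of the 8 deciles with at least 20 of them. Deciles of −log10 p gave a weighted share of 22.996% for the other peaks, and new peaks had the higher share in 5 of 8. By fold enrichment, the higher unweighted share thus did not hold among peaks of like strength. By −log10 p the weighted share was nearly that of new peaks, and the direction varied between deciles, so the reading depends on the ranking.

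CTCF was less common under new peaks. Of the new peaks, 64.2% (interval 63.4 to 65.0%) overlapped a CTCF peak of at least 1 untreated library, against 93.6% of the other peaks and 83.5% of the list. All 3 untreated CTCF lists held a peak at 24.6% of new and 71.6% of other peaks. Weighted to the new peaks' deciles, the share of the other peaks over CTCF was 80.3% by fold enrichment and 76.4% by −log10 p, so the difference from 64.2% kept its direction under both rankings. It was lower for new peaks in each of the 8 deciles of fold enrichment and in all but 1 of those of −log10 p. New peaks over CTCF were stronger, with a median fold enrichment of 5.12 (n = 9032), than those without (3.89, n = 5036). Where both proteins were present, summits lay close together. The median distance between RAD21 and CTCF summits was 35 bp in each of the 3 untreated CTCF lists for new peaks and 29 to 33 bp for the others. The CTCF peaks under new RAD21 peaks were of middle strength in their own lists, at median percentiles of 47.0, 43.6 and 45.4 in fold enrichment, against 65.8 to 74.1 for CTCF peaks under the others.

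The CTCF library with triptolide held a peak at 45.7% of new peaks, at 87.9% of the others and at 73.4% of the list. A CTCF peak of the triptolide library and none of the untreated CTCF libraries was found at 152 new peaks (1.08%), at 0.268% of the others and at 0.547% of the list. No CTCF peak in any of these 4 lists was found at 34.7% of new and 6.12% of other peaks.

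Pol II mapped in untreated cells covered 62.0% (interval 61.2 to 62.8%) of new peaks in at least 1 of its 2 lists, 54.0% of the others and 56.8% of the list. Both lists covered 38.4 and 27.8%. The weighted share of the other peaks was 70.1% by fold enrichment and 58.1% by −log10 p, so the ranking turns the direction here. The Pol II lists are broad regions, and about equal parts of them (50.0 and 48.5%) had a −log10 q under 1.3. With only the regions at or above 1.3, 42.6% of new peaks were covered. Pol II under triptolide was not analysed here, so these shares describe where polymerase stood before the drug.

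CTCF and Pol II together split the new peaks. Of the 5036 new peaks without untreated CTCF, 84.5% lay in a Pol II region, against 49.5% of those with CTCF. The classes without CTCF consisted mostly of new peaks. At gene ends, 1464 new peaks had Pol II and no CTCF, which is 10.4% of new peaks, while 397 other peaks (1.48%) were of this kind. New peaks were thus 78.7% of the list's peaks at gene ends with Pol II and no CTCF, against 34.3% of the whole list. The median fold enrichment of these 1464 was 3.24. That value falls in the lowest decile, where new peaks were 69.1% of all peaks. Inside genes the class with Pol II and without CTCF held 1576 new peaks (75.7% of its peaks), and between genes 1213 (65.3%). The median fold enrichment of these new peaks was 4.05 and 4.11, in the second lowest decile, where new peaks were 73.2% of all peaks. Whether the classes differ from other peaks of like strength was not tested. The most numerous class of new peaks was between genes, on CTCF and away from Pol II, with 2466 peaks (17.5%), and it was also the most numerous class of the other peaks (26.5%).

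**Figure D2:**
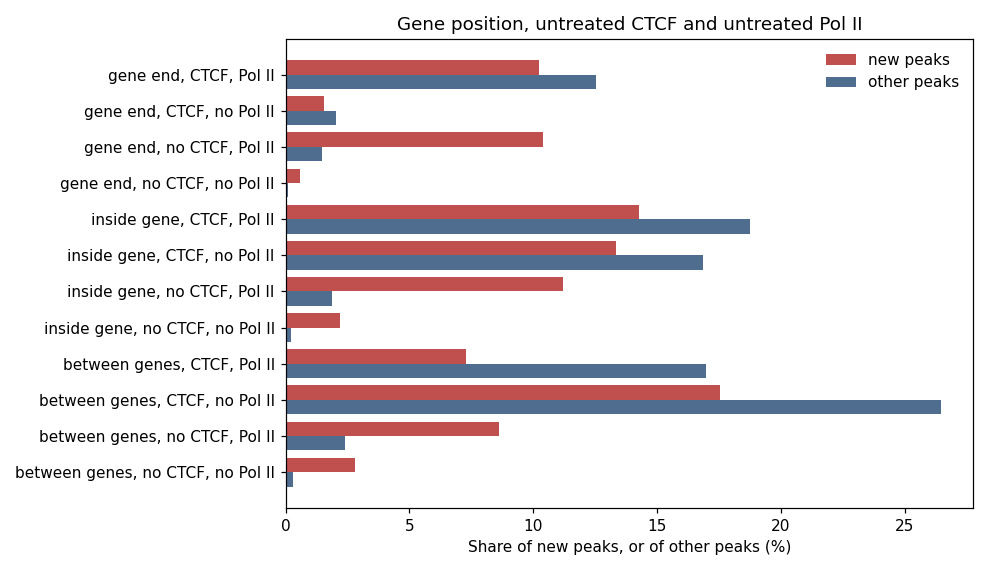
Share of new peaks and of other peaks of the triptolide list in 12 classes of gene position (within 1 kb of a gene end, inside a gene, between genes), untreated CTCF and untreated Pol II. The bars for new peaks are longer in all 6 classes without CTCF and shorter in all 6 with CTCF.

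Transcription starts were taken from RefSeq promoters, for the chromosomes with entries. Within 1 kb of a start lay 20.97% of new peaks, 12.8% of other peaks and 15.6% of the list. These shares were not compared among peaks of like strength. Among the 2684 new peaks with a summit within 1 kb, the median summit was 53.5 bp downstream of the start, and 40.0% were upstream. For the 3051 other peaks the median was 6 bp upstream, and 51.3% were upstream. New peaks with and without CTCF had nearly the same median, 54 and 53 bp downstream. Of the new peaks at gene ends on these chromosomes, 75.5% had a start within 1 kb and 24.5% did not. The latter lay on CTCF more often (66.3 against 46.8%) and in Pol II regions less often (84.2 against 93.2%).

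**Figure D3:**
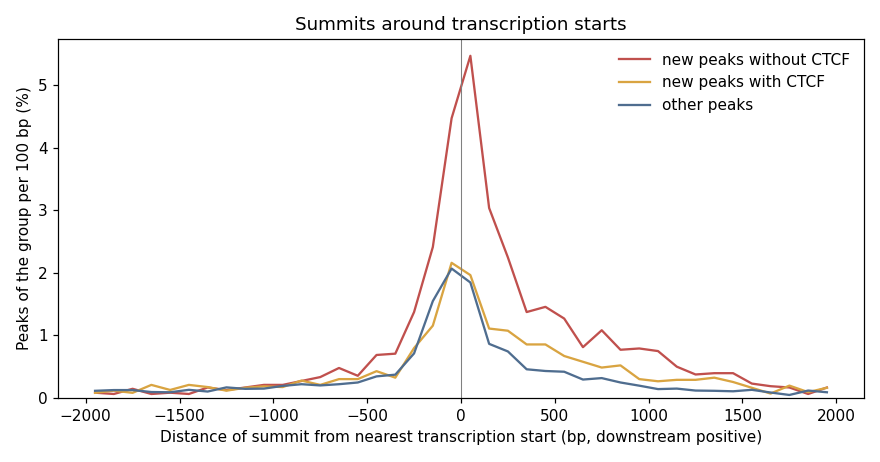
Distance from RAD21 summit to the nearest RefSeq transcription start in 100 bp bins, as a share of each group of peaks, with positive values downstream. New peaks without CTCF reach 5.47% in the bin from 0 to 100 bp, and new peaks with CTCF and the other peaks stay at or below 2.16%.

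In the promoter windows of 300 bases under new peaks, some short words were more common than over all RefSeq promoters, on either strand and anywhere in the window. The ETS word CCGGAAG stood in 22.3% of the 2006 promoters with a new peak and in 25.3% of the 1145 with a new peak off CTCF. It stood in 14.6% of the 2816 promoters with another peak of the list and in 12.8% of all 21943. The GC box GGGCGG, to which SP factors bind, was in 67.3% of promoters with a new peak, 76.1% of those with another peak and 56.3% of all. The word AGGNGGC from the CTCF motif, which can share letters with a GC box, was in 50.8% of promoters with a new peak on CTCF, 41.4% with one off CTCF and 41.2% of all. The TATA box word TATAAA was in 5.08% with a new peak, 4.30% with another peak and 9.50% of all. Promoters with a new peak had a median GC content of 64.0%, those with another peak 69.3% and all promoters 62.3%. Other words counted, in promoters with a new peak against all, were CCAAT (35.0 and 34.7%) and CACGTG (9.37 and 8.28%). TGCGCA was in 12.1 and 9.81% and the AP-1 word TGANTCA in 4.14 and 6.17%. The base of all promoters was not limited to those with Pol II. A match is a description of these letters, not a binding site.

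At least 1 new peak lay within 1 kb of an end of 3409 of 19974 protein-coding genes (17.1%), and for 3040 of them it was 1 peak. Of these genes, 2646 had no untreated RAD21 peak at their ends in any library. The share of all genes with an untreated RAD21 peak was not computed, so counts of such genes have no base here. A new peak stood at 23.6% of the 11056 genes with Pol II at an end in both untreated lists and at 3.18% of the 4940 genes with Pol II in neither. Other peaks of the list had the same order, at 28.3 and 6.72% of these genes and at 22.1% of all. Counts for the gene lists below are read beside 17.1 and 23.6%, and no list was tested. Markers of other cell types were a check on the identity of the line. Of 11 luminal breast markers, 9 had Pol II at an end in both untreated lists, against 1 of 10 haematopoietic, 2 of 10 fibroblast, 3 of 11 neuronal and muscle and 3 of 8 basal breast markers.

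The strongest new peaks at gene ends included those of housekeeping genes, and all lay on CTCF. The highest of all new peaks was at chr12:6537730-6538248 with a fold enrichment of 24.8. It lay within 1 kb of an end of GAPDH, a glycolytic enzyme, and of IFFO1, an intermediate filament family member. It stood over CTCF in all 3 untreated libraries and recurred in recovery with triptolide. The prolactin receptor gene PRLR followed with 17.4, at chr5:35229255-35229839, only 513 bp from an untreated RAD21 peak. The peak shared by CPEB3 and MARCHF5 had 14.8, and that of DGCR6 and PRODH (proline dehydrogenase) had 14.5. YTHDF1, a reader of methylated adenosine in mRNA, had 13.2, EEF1A1, the translation elongation factor, 13.01, and RPLP2, a protein of the ribosomal stalk, 12.6. All 20 of the strongest at gene ends overlapped CTCF in at least 1 untreated library and in the triptolide library. Most of the 20 were in deciles 7 and 8 of fold enrichment, where nearly all peaks lay on untreated CTCF. There it was 94.6 and 98.5% of new peaks and 97.9 and 98.9% of the others. Inside genes the highest were at AMMECR1 and RTL9 (19.0), SERPINB8 (17.6), RAD54L2 (16.7), CTIF (16.4) and ABR (15.6). Between genes the highest was at chr2:39593671-39594157 with 16.3, on CTCF in all 3 untreated libraries.

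Away from CTCF and with Pol II in both untreated lists, the strongest new peaks were weaker. The peak near ends of both CYB5RL and MRPL37, a mitochondrial ribosomal protein gene, had 10.5, followed by NFIA and ZNF613. RABGGTB, the beta subunit of Rab geranylgeranyl transferase, had 8.13, TMED10, a cargo receptor of the early secretory pathway, 7.98, ZMYM3 7.79 and INO80B, of the INO80 chromatin remodeller, 7.54. None of these 5 named with a value was in the recovery library with triptolide. Of all 1464 new peaks at gene ends with Pol II and no CTCF, 7.17% were in it. Among them was that of HMGN4 (7.51), which also had Pol II in both untreated lists.

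Luminal breast identity genes had the highest share of the 17 lists. A new peak lay at an end of 19 of 25 of them (76.0%), and 20 of the 25 had Pol II in both untreated lists. The highest were at KRT19 (fold enrichment 6.27), at a peak shared by KRT8 and KRT18 (6.21), the keratins of simple epithelia, and at AGR2 (6.14), a disulfide isomerase of secretory cells. ERBB2 had 5.47, FOXA1, a pioneer factor of the oestrogen receptor, 5.08, the progesterone receptor gene PGR 4.98, XBP1 2.97 and GATA3 1.99. For 13 of the 19 a new peak was off CTCF. Over all new peaks at gene ends, counted by peak and not by gene, 51.7% lay on CTCF. Of the same 25 genes, 17 had another peak of the triptolide list and 15 an untreated RAD21 peak at an end. Another peak stood at 22.1% of all genes and at 28.3% of those with Pol II in both lists. None of the 39 markers of other cell types had a new peak (0 of 10, 10, 11 and 8).

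Heat shock chaperones had new peaks at 11 of 20 genes (55.0%), and 2 of the 20 had an untreated RAD21 peak. Another peak of the list stood at 2 of the 20, beside 22.1% of all genes and 28.3% of those with Pol II in both lists. The genes with new peaks were DNAJB4 (5.19), HSPB1 (4.77), HSPA1B (4.50), HSP90B1 (4.34) and HSPA1A (4.19), followed by HSP90AA1, HSPD1 with HSPE1 at 1 shared peak, HSPA5, HSPA4 and HSPA8 (3.89 down to 2.63). HSPA1A and HSPA1B are near-identical copies, so reads may be split between them. For 8 of the 11 a new peak was off CTCF, beside 51.7% on CTCF over all new peaks at gene ends. Replication-dependent histone genes had new peaks at 14 of 35 (40.0%), which include 2 gene pairs with 1 peak each, H2BC8 with H2AC8 (8.00) and H2BC4 with H2AC6 (6.41). Cytosolic ribosomal protein genes had them at 18 of 55 (32.7%), with RPLP2, RPS25 (8.80), RPL27 (7.77) and RPL30 (7.53) the highest. For 13 of the 18 at least 1 new peak was off CTCF, a count by gene beside the same 51.7% on CTCF by peak.

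Glycolysis and housekeeping genes had new peaks at 7 of 21 (33.3%) and genes of the osmolyte and NFAT5 pathway at 6 of 18 (33.3%), with the amino acid transporter gene SLC38A2 the highest (5.79). Of 34 immediate early and MAP kinase response genes 11 (32.4%) had one, with IER2 (8.15), BTG2 (5.88), IER3 (5.85) and FOS (4.48) the 4 highest. Of these 34, 22 had an untreated RAD21 peak as well. Oestrogen and progesterone targets had them at 5 of 17 genes (29.4%), p53 targets at 4 of 15 (26.7%), and Pol II subunits and general transcription factors at 10 of 38 (26.3%), among them TAF12 (8.99), GTF2H2 and GTF2H4 of TFIIH (both 5.08) and POLR2A (3.75), the largest Pol II subunit. Shares close to that of genes with Pol II were found for the spliceosome (8 of 35, 22.9%), elongation, pausing and termination (7 of 31, 22.6%) and cohesin, CTCF and loop factors (4 of 20, 20.0%, STAG1 the highest with 5.42).

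**Figure D4:**
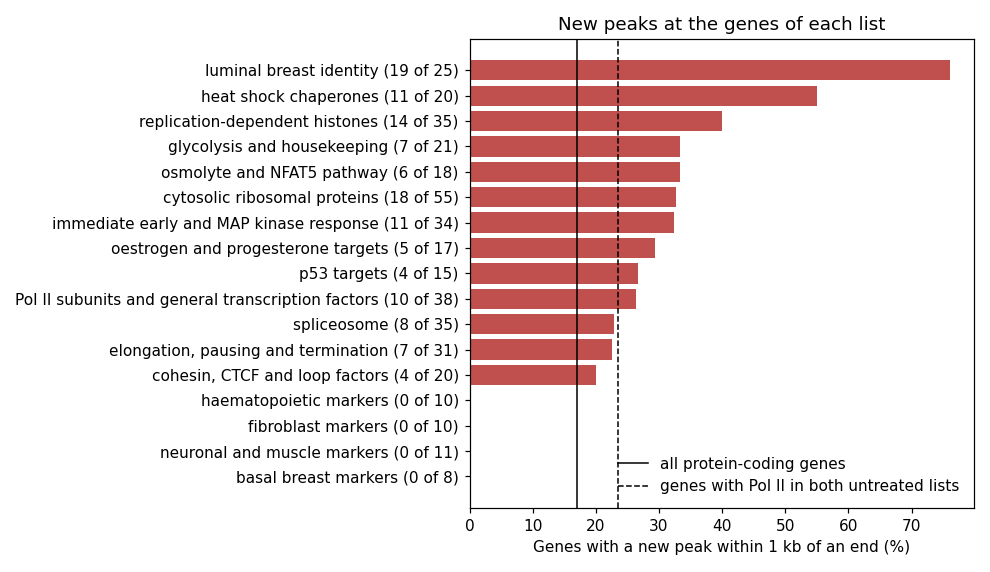
Share of the genes of each list with a new peak within 1 kb of an end, with counts beside the names. The solid line marks all protein-coding genes (17.1%) and the dashed line genes with Pol II in both untreated lists (23.6%). Luminal breast identity reaches 76.0%, and the 4 lists of other cell types are at 0.

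In the recovery library with triptolide 1840 of the new peaks were present (13.1%, interval 12.5 to 13.6%), against 76.6% of the other peaks and 54.8% of the list. The share of the other peaks weighted by fold enrichment was 41.3%, and by −log10 p 26.9%, both above 13.1%. Presence was higher among stronger peaks, from 4.84% of new peaks in the lowest decile of fold enrichment to 72.7% of the 66 in the eighth. New peaks with CTCF were found again more often (17.4%) than those without (5.30%). In the library with triptolide at 1 h of NaCl, a list of 3344 peaks, 1 new peak was present, against 12.4% of the other peaks and 8.14% of the list.

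Without triptolide, the 3 recovery libraries held 0.0213, 10.1 and 0.0995% of the new peaks (3, 1417 and 14 peaks), where the whole list gave 10.6, 47.0 and 15.7%. Replicate 2, whose list of 20400 peaks was 3 times or more the length of the other two (4397 and 6492), carried nearly all of them. At 1 h of NaCl the 3 libraries held 0.0498, 1.15 and 0.185%, beside 11.5, 18.4 and 15.9% of the list. Recovery and 1 h of NaCl averaged 3.40 ± 5.78% and 0.462 ± 0.601% (SD, n = 3 each), a difference of 2.94 percentage points in an exact 2-sided permutation test over libraries (p = 0.9, with 0.1 the smallest p that 3 against 3 can give). The groups overlapped, and the difference was smaller than the spread. Without recovery replicate 2 it was −0.40, and with the 4397 strongest peaks of each list −0.021. Within set 1 it was 4.45 and within set 2 −0.085 percentage points, and the set 2 recovery library is the one tagged with triptolide.

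In any recovery list without triptolide 1430 new peaks were found (10.2%), against 66.7% of the other peaks and 47.3% of the list. Of the 1430 new peaks, 512 were also in the recovery library with triptolide, which is 35.8% of the 1430 and 27.8% of the 1840. Neither kind of recovery list held 11310 (80.4%), and 11205 (79.6%) were in none of the 8 other RAD21 lists, stressed or recovering. These 2 shares were not computed for the whole list, so they have no base here. No new peak was in all 4 recovery lists, of which replicate 1 without triptolide held only 3 new peaks. In the lists where they returned they were weak again, at a median percentile of fold enrichment of 17.6 in recovery replicate 2 and of 17.8 in recovery with triptolide. At gene ends without CTCF, the highest present in recovery both with triptolide and in at least 1 library without it were at HMGN4 (7.51), a nucleosome-binding protein gene, METTL18 (5.83), ARID1B (5.83), of the BAF remodeller, ZNF888 (5.27) and BMS1 (5.24), a ribosome biogenesis factor. All were chosen after their values were seen, as were those off CTCF with Pol II in both lists.

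CTCF peaks were found at fewer of the new peaks after NaCl, in a design of libraries too small to pass 0.05. The 3 untreated CTCF libraries held peaks at 60.5, 44.1 and 36.4% of new peaks (81.0, 70.4 and 64.8% of the list), and those at 1 h of NaCl at 33.4, 28.3 and 13.1% (63.6, 58.4 and 38.0% of the list). Every untreated library was above every 1 h library, by 22.1 percentage points on average (47.0 ± 12.3 against 24.9 ± 10.6%, SD, n = 3 each, exact 2-sided permutation p = 0.1, the smallest possible). The difference was 21.5 within set 1 and 23.3 within set 2. Over all peaks of the list it was 18.7, and whether this differs from the new peaks was not tested. The CTCF lists shortened too, from 38571 to 59843 peaks untreated to 22018 to 35374 at 1 h. At 7.5 min the share was 34.3 and 28.5% (65.1 and 58.6% of the list) and at 30 min 21.2% (50.7% of the list). It was 48.5% in the CTCF recovery library and 32.1% in that with triptolide, beside 74.1 and 60.0% of the list, which followed the same order.

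Pol II regions covered fewer of the new peaks at 1 h of NaCl, 24.99 and 29.5% against 47.4 and 52.96% untreated. For the whole list these shares were 23.2 and 27.4% against 41.4 and 46.8%. The groups did not overlap and differed by 22.9 percentage points (50.2 ± 3.93 against 27.2 ± 3.19%, SD, n = 2 each, exact 2-sided permutation p = 0.333, the smallest that 2 against 2 can give). All 4 libraries belong to set 1. Their lists were unlike, with 107396 and 216968 regions at 1 h against 105302 and 88046 untreated. Of the regions at 1 h, 80.0 and 92.4% had a −log10 q under 1.3, against 50.0 and 48.5% untreated. The list as a whole gave a difference of 18.8 points.

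**Figure D5:**
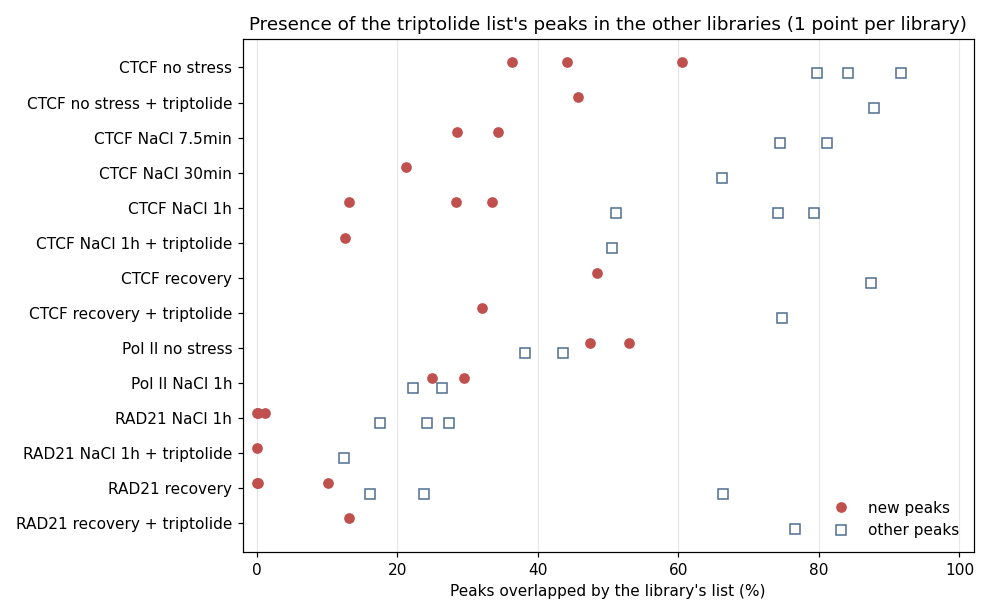
Share of new peaks (filled circles) and of the other peaks of the triptolide list (open squares) overlapped by the list of each other library, 1 point per library. The untreated RAD21 lists, which chose the new peaks, are left out. In each CTCF and RAD21 library the share is lower for new peaks than for the other peaks, and in each of the 4 Pol II libraries it is higher.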

How the data were processed

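The authors' peak lists of RAD21, CTCF (narrow peaks) and Pol II (broad regions), 1 per library and 29 in all, were used. Reads were handled with cutadapt, Bowtie2 (2.2.6) and MACS2 on hg38, per the submitters' processing notes. Calling thresholds and controls are not given in the sources used. The deposited fold enrichment is a ratio of signal to background, and the deposited −log10 p and −log10 q values come from the caller. They served to order or select peaks of the same list. Depth per library is unknown, and the caller's background was recovered from fold enrichment and −log10 p in 1500 peaks a list, of which 10.5 to 33.2% shared the level given.

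Overlaps were computed in Python (3.11.15) with pandas (2.3.3), numpy (2.4.6), and scipy (1.17.1) for intervals, and checked on simulated intervals. Genes (19974 protein-coding) and starts came from RefSeq tables of GRCh38.p14, of which 15812 genes had a start. Intervals are exact (Clopper-Pearson, 95%). Samples were grouped by title, with set 2 the separate submission. Groups of libraries were compared with exact permutation tests. Alternatives changed the overlap rule, the untreated libraries used, the list length, filters and distances. Named peaks are the 20 of highest fold enrichment at gene ends, the 5 highest inside and between genes, and up to 4 examples of each gene list, and other genes named were chosen after their values were seen. New peaks and lists were chosen with earlier results of these data known.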

Additional observations from a re-analysis of the deposited data

How the results depend on the processing

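The number of new peaks was within 1.5 times of 14068 under 7 of 9 alternatives (11496 to 17375 among them). It was 2717 with the strongest peaks only, and 15097 to 21413 without 1 untreated library, the highest without replicate 3. The share at gene ends was 21.3% with no untreated peak within 500 bp, 23.6% by the summit, 25.5% with under 50% overlap, 28.4% against set 2 alone, 20.8% at a −log10 q of at least 5 and 18.4% with the strongest peaks. It was 16.8 to 25.7% without 1 untreated library, 17.6 and 36.1% within 500 and 5000 bp, and 20.97% for starts, an alternative added after the data were seen, as was ranking by −log10 p. The share over CTCF was 87.9% with the strongest peaks, 36.4% for set 2 alone, 24.6% for all 3 libraries and 45.7% with triptolide. It was 65.3 to 72.7% without 1 untreated RAD21 library. The Pol II share was 38.4% for both lists, 42.6% with the −log10 q filter and 55.1 to 63.9% without 1 untreated RAD21 library. The share in recovery with triptolide was 16.9% with under 50% overlap, 18.3% against set 2 alone, 15.4% at a −log10 q of at least 5, 36.3% with the strongest peaks and 14.02 to 26.6% without 1 untreated library. The cause was not tested.

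Between recovery and 1 h of NaCl the RAD21 difference was −0.021 points with equal list lengths and ran from −0.40 to 4.62 leaving out 1 library. The CTCF difference ran from 15.3 to 27.4 and that of Pol II from 20.2 to 25.7, and was 25.4 with the filter. With the replicate number as a block the p-values were 1.0, 0.25 and 0.5 for RAD21, CTCF and Pol II, and the differences of 2.94, 22.1 and 22.9 points stayed as they were. Same-numbered libraries deviated together over the new peaks with r of 0.047 to 0.070 for RAD21 and 0.011 for Pol II. For CTCF r was 0.070, 0.36 and 0.28 in replicates 1, 2 and 3, and replicate 3 is the separate submission. The numbers were not taken as pairs in the main tests. For CTCF these values do not settle that choice, and the result with the block is given above.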

Other observations

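RNA genes and chromosomes complete the description of the new peaks. Of 443 tRNA genes 69 (15.6%) had a new peak within 1 kb of an end and 53 (11.96%) another peak of the list, and of 1196 snoRNA genes 39 (3.26%) and 27 (2.26%). For 18177 lncRNA genes the order was the other way, with 7.29% against 12.6%, as it was for miRNA genes (3.87 against 6.54% of 1911). New peaks made up 30.3% of the list's peaks on chromosome 20, the lowest share, and 42.6% on chromosome 19, the highest, followed by 41.2% on X. These are shares with no test, and tRNA genes are repeated, so reads there may be placed among copies.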
